A study of Mus musculus with 15 samples.

Results

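Genes of glycolysis and of the hypoxia response were examined by RNA sequencing in C57BL/6 mouse embryos, in the aorta, gonad and mesonephros (AGM) region, the tissue in which the first transplantable hematopoietic stem cells form. The members are the genes of the deposited table whose name is on a fixed list of 39 names. The names Pkm and Pkm2 stand for 1 gene, listed as Pkm2, so that 38 genes were found among 28876, and all 38 were among the 18553 genes tested. The dorsal aorta with its surrounding tissue was divided into a dorsal part (AoD) and a ventral part (AoV) at E9.5 and at E10.5, and the urogenital ridges (UGR) were taken at E10.5. The 5 groups are called E9 AoV and E9 AoD, E10 UGR, E10 AoV and E10 AoD. Each group holds 3 libraries, 15 in all, and each library was made from dissected tissue pooled over many embryos, untreated as far as the labels say. Levels are RPM (reads of a gene scaled to the library's total), which do not account for gene length. Levels were compared with limma on log2(RPM + 0.1), and a gene passed the test when its Benjamini-Hochberg adjusted p over all tested genes was below 0.05. A member was called when it also changed by at least 2-fold. Fold changes are on the log2(RPM + 0.1) scale, where the added 0.1 RPM understates the change of a gene near that level.

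Glycolysis splits glucose into pyruvate in the cytosol. Glucose transporters and hexokinases bring glucose into the pathway, lactate dehydrogenase interconverts pyruvate and lactate, and pyruvate dehydrogenase kinases hold back the entry of pyruvate into the mitochondrial TCA cycle. Hypoxia-inducible factors (HIF) pair an oxygen-labile alpha subunit, such as that of Hif1a or Epas1, with a stable partner and activate many glycolytic genes. The prolyl hydroxylases Egln1 and Egln3 mark the alpha subunits for breakdown when oxygen is present, so that the mRNA level of a subunit does not give its protein level. Early mouse embryos use glucose largely by glycolysis, and oxidative metabolism grows as the circulation develops.

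The 38 members together took a larger share of the reads at E9.5 than at E10.5. Their summed share was 1.04% ± 0.0527 (SD, n = 3) in E9 AoD and 0.879% ± 0.0133 in E9 AoV, against 0.682% ± 0.0143 in E10 UGR, 0.558% ± 0.0129 in E10 AoV and 0.563% ± 0.0184 in E10 AoD. The highest E10.5 library, 0.698% in E10 UGR, lay below the lowest E9.5 library, 0.870% in E9 AoV. Per kilobase of exon sequence Pkm2 had the highest level of the members in E9 AoD, 1283 RPM per kilobase. Pdk4, Car9 and Eno2 had the lowest there, at most 0.307 RPM per kilobase. The lowest value of a member in any library was 0.642 RPM, of Car9.

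Depth, worked out from the spacing of low values, was 33.65 to 48.54 M reads per library. Genes of other tissues moved with the groups. Summed immediate early genes, which respond to handling and other stimuli, were at 603 to 1622 RPM in the E9.5 libraries and at 2383 to 4745 RPM in the E10.5 libraries. The 6 markers of liver and gut endoderm summed to 479 to 737 RPM in E9 AoV and to at most 30.1 RPM in any other library. The 6 endothelial markers summed to 284 to 385 RPM in E9 AoD and to 455 to 668 RPM elsewhere, and the 6 macrophage markers to 2.12 to 9.39 RPM at E9.5 and 35.6 to 71.0 RPM at E10.5. Sclerotome markers summed to 86.6 to 91.1 RPM in E9 AoD and 308 to 454 RPM in E10 AoD, and to at most 16.2 RPM in the other groups. Urogenital ridge markers summed to 654 to 709 RPM in E10 UGR, 411 to 443 RPM in E10 AoV and at most 96.6 RPM elsewhere, and of the notochord markers Noto was at 0 in E10 AoV. The part of these markers in the results below was not tested, and fewer cells of a type and less RNA per cell cannot be told apart in bulk tissue.

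Most members were lower at E10.5 than at E9.5. In the ventral aorta 29 of 38 passed the test, 23 of them lower at E10.5 and 6 higher, where 46.0% of all tested genes passed, 22.4% lower and 23.6% higher. In the dorsal part 31 passed, 22 lower and 9 higher, where 57.8% of all tested genes passed, 27.9% lower and 30.0% higher. The median log2 fold change of the members was -0.44 in AoV and -0.37 in AoD, against a median of -0.0016 and -0.0019 over all tested genes. At 2-fold, 8 members were called in AoV, 6 lower and 2 higher, beside 11% of all tested genes, 4.99% lower and 6.04% higher. In AoD 11 were called, 8 lower and 3 higher, beside 12.6%, 4% lower and 8.6% higher. Without E9 AoD replicate 3, 5 were called lower and 3 higher, since Eno1, Slc16a1 and Pdk1 no longer reached 2-fold. With quantile normalization 8 were called lower and 2 higher, with Pkm2 (log2 fold change -1.11) in and Eno1 and Pdk2 out.

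A set of 20 members was lower at E10.5 in both parts of the aorta, beside 14.8% of all tested genes: Slc2a1, Slc2a3, Hk2, Gpi1, Pfkl, Aldoa, Tpi1, Gapdh, Pgk1, Pgam1, Eno1, Eno3, Pkm2, Ldha, Slc16a1, Slc16a3, Pdk1, Egln3, Bnip3 and P4ha1. In both parts 4 members were higher, namely Ldhb, Pdk2, Epas1 and Car9, beside 16.3%, and P4ha2 went in opposite directions. A further 10 passed in 1 part of the aorta only, and Aldoc, Ankrd37 and Ddit4 passed in neither. Over all libraries, each of the 9 E10.5 libraries lay below each of the 6 E9.5 libraries for 15 members, beside 5.93% of all tested genes, and above them for Ldhb and Pdk2, beside 7.75%. The 2 stage comparisons share no library but are not independent. The fit takes a common spread for each gene from all 15 libraries, and same-numbered E9 AoD and E9 AoV libraries were correlated.

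**Figure D1:**
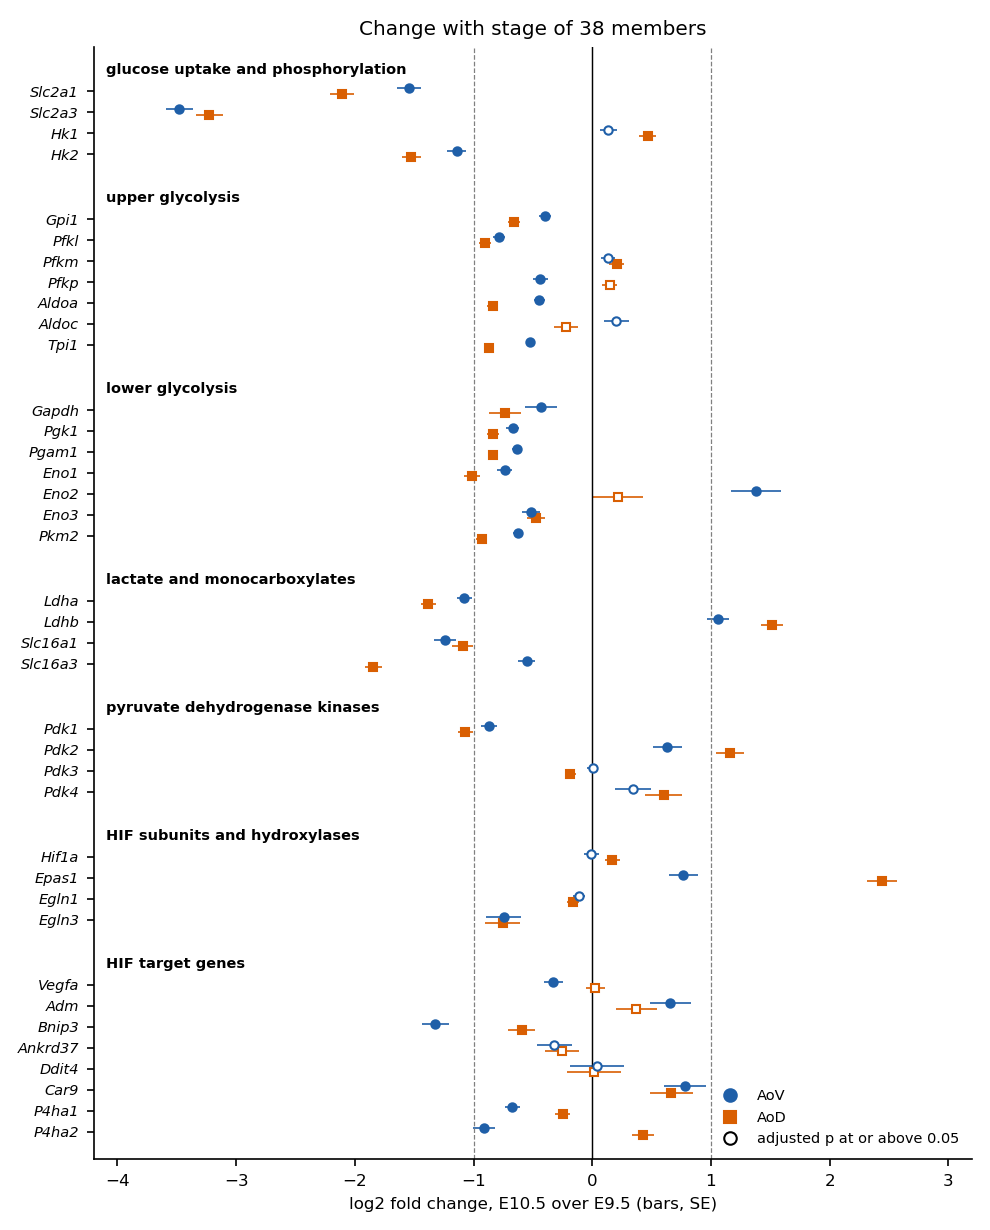
Log2 fold change from E9.5 to E10.5 of each of the 38 members (rows, grouped by role), in the ventral (circles) and dorsal (squares) aorta, on the log2(RPM + 0.1) scale with its standard error; open symbols did not pass the test and dashed lines mark 2-fold. Most rows of glycolysis lie to the left of 0 in both parts, Slc2a3 at -3.48 and -3.23, while Ldhb, Pdk2, Epas1 and Car9 lie to the right in both.

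Among the genes of glucose uptake and phosphorylation, 3 of 4 fell at least 2-fold in both parts of the aorta. Of all tested genes 4.99% were called lower in AoV and 4% in AoD. Slc2a3 (chr6:122677827-122751658 of NCBIM37, minus strand), a high-affinity glucose transporter, changed most of all members. Slc2a3 stood at 268, 308 and 305 RPM in E9 AoV, 140, 139 and 210 in E9 AoD, 25.2, 25 and 24 in E10 UGR, 26.6, 26.2 and 25.8 in E10 AoV and 16.7, 17.2 and 17.1 in E10 AoD. Every E9.5 library was at least 139 RPM and no E10.5 library was above 26.6 RPM. The level was 11.1-fold lower at E10.5 in AoV (log2 fold change -3.48, SE 0.115, adjusted p 4.51e-11) and 9.36-fold lower in AoD (-3.23, SE 0.115, adjusted p 8.08e-11).

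Slc2a1 (chr4:118781316-118809935), the basal glucose transporter, showed the same order of stages. Slc2a1 stood at 252, 262 and 280 RPM in E9 AoV, 337, 298 and 441 in E9 AoD, 95.7, 93.7 and 96.5 in E10 UGR, 90.7, 89.5 and 92.3 in E10 AoV and 88.9, 75.6 and 82.5 in E10 AoD. The E9.5 libraries, led by E9 AoD replicate 3, did not overlap with those of E10.5, which lay close to each other in the 3 tissues. The fall was 2.91-fold in AoV (-1.54, SE 0.102, adjusted p 2.17e-08) and 4.30-fold in AoD (-2.11, SE 0.102, adjusted p 1.02e-09).

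Hk2 (chr6:82675019-82724448) encodes the inducible, mitochondria-bound hexokinase. Hk2 stood at 96.3, 109 and 100 RPM in E9 AoV, 103, 119 and 133 in E9 AoD, 53.1, 51.1 and 49.3 in E10 UGR, 48.6, 45.5 and 44 in E10 AoV and 43.4, 40.5 and 38.8 in E10 AoD. Again no E10.5 library reached an E9.5 library. Hk2 fell 2.21-fold in AoV (-1.14, SE 0.0792) and 2.88-fold in AoD (-1.52, SE 0.0792). Hk1, the hexokinase found in most tissues, was 1 of the members that did not fall: it rose in AoD by 0.47 on the log2 scale (SE 0.0725, adjusted p 6.5e-05) and changed by 0.14 in AoV (adjusted p 0.144).

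The enzymes of upper glycolysis, from glucose phosphate to triose phosphates, changed by less than 2-fold. Of 7, 5 were lower and none was higher in AoV (beside 22.4% and 23.6% of all tested genes). In AoD 4 were lower and 1 higher (beside 27.9% and 30.0%). Gpi1, Pfkl, Aldoa and Tpi1, which are the isomerase, the liver-type phosphofructokinase, aldolase A and triose phosphate isomerase, fell in both, by 0.40 to 0.78 on the log2 scale in AoV and by 0.66 to 0.90 in AoD. The other phosphofructokinases behaved otherwise: Pfkm, the muscle type, rose by 0.21 in AoD (adjusted p 0.00916), and Pfkp, the platelet type, fell by 0.44 in AoV (adjusted p 5.06e-05) with 0.15 in AoD (adjusted p 0.0554). Aldoc was found at 2.85, 3.04 and 3.04 RPM in E9 AoV, 2.43, 2.74 and 2.48 in E9 AoD, 4.15, 4.5 and 3.97 in E10 UGR, 3.76, 3.48 and 3.12 in E10 AoV and 2.41, 2.06 and 2.06 in E10 AoD. This aldolase, best known from brain, had the largest spread of group means in upper glycolysis, 1.93-fold between E10 AoD and E10 UGR, and passed the stage test in neither part.

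In lower glycolysis, from triose phosphates to pyruvate, 6 of 7 members were lower at E10.5 in both parts (beside 14.8% of all tested genes). Gapdh, Pgk1, Pgam1, Eno1, Eno3 and Pkm2 fell by 0.43 to 0.74 in AoV and by 0.48 to 1.01 in AoD on the log2 scale. Pkm2, pyruvate kinase and the most abundant member, fell from 3067 ± 110.2 RPM in E9 AoD to 1610 ± 52.9 in E10 AoD and from 2340 ± 55.7 in E9 AoV to 1517 ± 40.4 in E10 AoV (SD, n = 3). Gapdh was at 33.4 to 77.5 RPM, with reads that also matched its many copies divided among them, and its fall in AoV, 0.43 (adjusted p 0.0148), lost significance without E10 AoV replicate 2 (adjusted p 0.051) and without E9 AoV replicate 1 (adjusted p 0.068).

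Eno1 stood at 689, 646 and 700 RPM in E9 AoV, 868, 829 and 942 in E9 AoD, 502, 527 and 555 in E10 UGR, 409, 388 and 423 in E10 AoV and 455, 396 and 457 in E10 AoD. Eno1 (chr4:149610830-149622988), the enolase of most embryonic tissues, had no E10.5 library as high as the lowest E9.5 library. It was 2.02-fold lower in AoD (-1.01, SE 0.0644, adjusted p 9.94e-09). This lies at the 2-fold limit, and the log2 fold change was -0.96 without E9 AoD replicate 3, -0.95 without E10 AoD replicate 2, -0.96 with quantile normalization and -0.99 when near-identical copies were added, all still past the test.

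Eno2 (chr6:124710071-124719691), the neuronal enolase, moved the other way. Eno2 stood at 2.6, 1.6 and 1.88 RPM in E9 AoV, 1.67, 1.75 and 0.919 in E9 AoD, 8.5, 6.74 and 8.59 in E10 UGR, 5.66, 5.42 and 4.94 in E10 AoV and 1.51, 1.66 and 1.75 in E10 AoD. The E10 AoV and E10 UGR libraries stood above all others, while E9 AoD, E9 AoV and E10 AoD overlapped. Eno2 was 2.60-fold higher in E10 AoV than in E9 AoV (1.38, SE 0.208, adjusted p 7.71e-05), and the difference in AoD was 0.22 (SE 0.208, adjusted p 0.39). These are low levels, 0.919 RPM being about 43 reads. Beside this, the 7 neural tube and neuron markers summed to 12.6 to 13.9 RPM in E9 AoV and 38.6 to 42.4 in E10 AoV. They summed to 122 to 174 RPM in E9 AoD, 164 to 197 in E10 AoD and 28.2 to 32.8 in E10 UGR. The 7 did not move together. At E10.5, 3 were called higher and 2 lower in AoV (beside 6.04% and 4.99% of all tested genes). In AoD 2 were called higher and 4 lower (beside 8.6% and 4%). The part of these markers in the levels of Eno2 was not tested.

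Several members share exon sequence with other loci, among which ambiguous reads were divided. Of all 50-base windows of the exons, 91.9% of those of Pgam1, 73.7% of Pgk1, 52.0% of Gapdh, 46.6% of Bnip3, 40.6% of Pkm2, 26.9% of Ldhb, 26.1% of Eno1 and 18.5% of Ldha occur elsewhere in the genome. The 2 near-identical copies of Eno1 in the table were at 2.26 to 2.31 times its own level in all 5 groups, and the 50 copies of Gapdh at 1.78 to 2.07 times. Near-identical copies in the table were found for Bnip3, Eno1, Gapdh, Gpi1, Ldhb, Pgam1 and Pgk1. None was found for Pkm2 or Ldha, whose levels were therefore left as they were. With the copies added to the members that had them, 29 members passed in AoV with 8 called, as before. In AoD 10 members were called instead of 11, since Eno1 no longer reached 2-fold.

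At the lactate step the isozymes went in opposite directions. Ldha (chr7:54096845-54110997) encodes the lactate dehydrogenase subunit of glycolytic tissue and Ldhb (chr6:142438769-142456477) the subunit of heart and other oxidative tissue. Ldha stood at 1060, 1010 and 1070 RPM in E9 AoV, 1490, 1410 and 1650 in E9 AoD, 690, 678 and 724 in E10 UGR, 503, 467 and 519 in E10 AoV and 585, 539 and 620 in E10 AoD. Ldhb stood at 84.4, 90.8 and 81.7 RPM in E9 AoV, 47.6, 57.4 and 39.5 in E9 AoD, 179, 184 and 186 in E10 UGR, 174, 179 and 182 in E10 AoV and 142, 137 and 130 in E10 AoD. For Ldha every E9.5 library lay above every E10.5 library, and for Ldhb every E9.5 library lay below. Ldha fell 2.11-fold in AoV (-1.08, SE 0.0638, adjusted p 7.08e-09) and 2.61-fold in AoD (-1.38, SE 0.0638, adjusted p 6.83e-10). Ldhb rose 2.08-fold in AoV (1.06, SE 0.0932, adjusted p 3.71e-07) and 2.86-fold in AoD (1.51, SE 0.0932, adjusted p 7.49e-09). A near-identical copy of Ldhb in the table was at 0.611 to 0.658 times the level of Ldhb in the 5 groups, so which of the mRNAs was the more abundant per length at E10.5 is not given.

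The monocarboxylate transporters Slc16a1 (chr3:104442591-104462385) and Slc16a3 (chr11:120809794-120822182) carry lactate across the cell membrane, the latter mainly outward. Slc16a1 stood at 155, 187 and 189 RPM in E9 AoV, 157, 157 and 196 in E9 AoD, 95.9, 93 and 93.5 in E10 UGR, 71, 70.6 and 83 in E10 AoV and 79.7, 77.3 and 80.8 in E10 AoD. Slc16a3 stood at 105, 118 and 111 RPM in E9 AoV, 110, 129 and 138 in E9 AoD, 73.8, 69.7 and 74.8 in E10 UGR, 73.9, 74.5 and 79.2 in E10 AoV and 35.4, 33.9 and 35 in E10 AoD. Both were lower in every E10.5 library than in any E9.5 library, but they differed among the E10.5 tissues: Slc16a1 was alike in E10 AoD and E10 AoV within their overlapping ranges, while Slc16a3 was lowest in E10 AoD. Slc16a1 fell 2.36-fold in AoV (-1.24, SE 0.0905) and 2.13-fold in AoD (-1.09, SE 0.0905), the latter by 0.99 on the log2 scale without E9 AoD replicate 3, its highest library. Slc16a3 fell 3.59-fold in AoD (-1.84, SE 0.0695, adjusted p 1.4e-10) and by 0.55 on the log2 scale in AoV (adjusted p 1.36e-05). The annotation has exons on the opposite strand over 15.6% of the Slc16a3 exons, and reads of the strands cannot be told apart here.

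The pyruvate dehydrogenase kinases also split. Pdk1 (chr2:71711281-71741915) is a HIF target and Pdk2 (chr11:94887572-94902668) is widespread in oxidative tissue. Pdk1 stood at 86.2, 86.8 and 84.8 RPM in E9 AoV, 63.4, 69.9 and 79.4 in E9 AoD, 64.8, 64.2 and 60 in E10 UGR, 46.4, 49.2 and 45.5 in E10 AoV and 32.9, 34.3 and 33.6 in E10 AoD. Pdk2 stood at 9.3, 7.35 and 7.61 RPM in E9 AoV, 5.83, 4.86 and 3.98 in E9 AoD, 14.8, 16.9 and 15.9 in E10 UGR, 11.8, 13.8 and 12.1 in E10 AoV and 10.6, 11.3 and 10.9 in E10 AoD. Pdk1 was lowest in E10 AoD and its E9.5 libraries did not overlap with those of the E10.5 aorta, although E10 UGR replicates reached the range of E9 AoD. Pdk2 was higher in each E10.5 library than in each E9.5 library. Pdk1 fell by 0.87 in AoV (SE 0.065, adjusted p 7.11e-08) and by 1.07 in AoD (SE 0.065, adjusted p 6.81e-09), the latter by 0.98 without E9 AoD replicate 3. Pdk2 rose by 0.63 in AoV (SE 0.122, adjusted p 0.000636) and by 1.16 in AoD (SE 0.122, adjusted p 1.44e-06), the latter 0.98 with quantile normalization. Pdk3 fell by 0.19 in AoD and Pdk4 rose by 0.60 there (adjusted p 0.00283 and 0.00372), and neither passed in AoV.

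**Figure D2:**
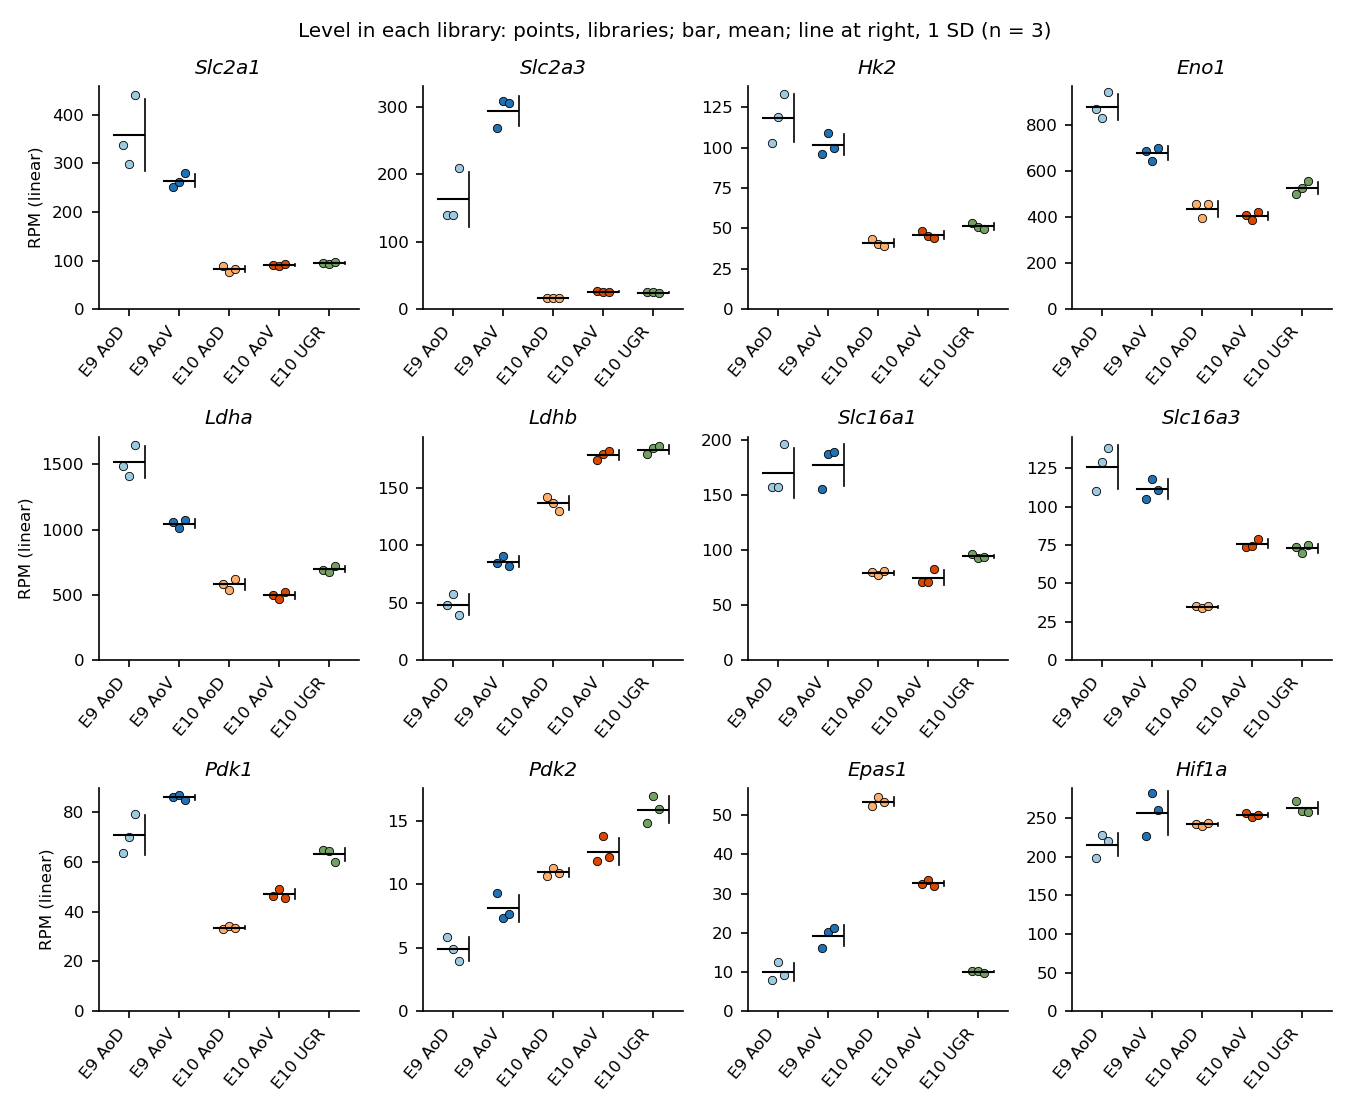
Level in RPM (linear axes from 0) of 12 members in each library, with the mean (horizontal bar) and 1 SD (line at its right) of each group, n = 3. The transporters, Hk2, Eno1 and Ldha are high in the E9.5 groups, Ldhb and Pdk2 are high in the E10.5 groups, Epas1 peaks in E10 AoD, and Hif1a lies between 199 and 283 RPM in all libraries. Pdk1 is higher in the E9.5 than in the E10.5 aorta, while E10 UGR overlaps with E9 AoD.

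Promoters of Ldha and Ldhb and of Pdk1 and Pdk2, the family members that changed in opposite directions in both parts of the aorta, are shown because HIF binds the core sequence ACGTG or GCGTG. The sequences are the 250 bases before the most upstream RefSeq start of each gene (GRCm38.p6, another build than that of the gene positions above), read on the gene's strand, with every match to a core on either strand in capitals.
Ldha (chr7:46845554-46845803, plus strand): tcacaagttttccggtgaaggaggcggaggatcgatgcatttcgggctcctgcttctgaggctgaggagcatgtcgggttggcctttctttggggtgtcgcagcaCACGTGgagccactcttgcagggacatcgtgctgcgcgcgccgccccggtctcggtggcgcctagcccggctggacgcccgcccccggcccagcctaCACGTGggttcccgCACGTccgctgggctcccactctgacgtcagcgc
Ldhb (chr6:142507958-142508207, minus strand): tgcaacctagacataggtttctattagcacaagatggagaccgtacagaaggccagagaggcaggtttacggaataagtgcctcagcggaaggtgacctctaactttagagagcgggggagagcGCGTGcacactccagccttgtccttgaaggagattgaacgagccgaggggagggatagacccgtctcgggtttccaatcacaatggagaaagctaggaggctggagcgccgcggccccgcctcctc
Pdk1 (chr2:71872974-71873223, plus strand): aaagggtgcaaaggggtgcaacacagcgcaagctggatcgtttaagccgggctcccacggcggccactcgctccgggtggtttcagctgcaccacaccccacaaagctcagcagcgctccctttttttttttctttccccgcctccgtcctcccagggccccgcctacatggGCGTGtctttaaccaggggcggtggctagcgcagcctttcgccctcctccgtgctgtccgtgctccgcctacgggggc
Pdk2 (chr11:95041372-95041621, minus strand): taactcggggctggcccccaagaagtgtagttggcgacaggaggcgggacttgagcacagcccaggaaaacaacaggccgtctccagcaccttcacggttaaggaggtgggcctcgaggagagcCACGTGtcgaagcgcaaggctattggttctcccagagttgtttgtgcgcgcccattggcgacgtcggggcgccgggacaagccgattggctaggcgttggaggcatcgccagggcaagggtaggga
The window of Ldha holds ACGTG 3 times, counting a palindrome CACGTG once, that of Pdk2 once and those of Ldhb and Pdk1 hold GCGTG once each. Windows were found for 36 of 38 members, without Slc2a3 and Epas1. ACGTG on either strand was in 19 of 36 (52.8%), against 17.6% of 17492 protein-coding genes and 16.5% of all 27025 genes with a window. Either core was in 29 of 36 (80.6%), against 43.9% of the protein-coding genes and 38.6% of all. Of the members lower at E10.5 in both parts of the aorta 10 of 19 held ACGTG, of those higher in both 2 of 3, and of the others 7 of 14. The ACGTG core overlaps with CACGTG, the E-box that other factors bind, and a match is not a bound site. The members were listed as genes of glycolysis and the hypoxia response, so a share above that of all genes is not a result of these data. The compared genes were not matched for base composition.

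Of the 4 HIF subunits and hydroxylases, 1 fell and 1 rose at E10.5 in AoV, near the 22.4% and 23.6% of all tested genes. In AoD 2 fell and 2 rose, beside 27.9% and 30.0%. Hif1a stood at 227, 283 and 260 RPM in E9 AoV, 199, 228 and 220 in E9 AoD, 272, 259 and 258 in E10 UGR, 257, 252 and 254 in E10 AoV and 243, 240 and 244 in E10 AoD. The ranges of the aorta groups overlapped between stages in AoV, where Hif1a changed by -0.01 (SE 0.0659, adjusted p 0.942). In AoD the difference of 0.17 (adjusted p 0.0383) lost significance under 8 of 23 other settings, 5 of them leaving out 1 library each, with adjusted p of 0.171 without E9 AoD replicate 1, 0.0517 without E9 AoD replicate 3, and 0.0791, 0.0634 and 0.0836 without E10 AoD replicates 1, 2 and 3.

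Epas1 (chr17:87153247-87232750), the HIF-2 alpha subunit, known for expression in endothelium and the sympathoadrenal lineage, had a pattern of its own. Epas1 stood at 16.2, 20.2 and 21.3 RPM in E9 AoV, 8.06, 12.5 and 9.19 in E9 AoD, 10.2, 10.3 and 9.86 in E10 UGR, 32.4, 33.4 and 32 in E10 AoV and 52.4, 54.6 and 53.3 in E10 AoD. It was highest in E10 AoD, next in E10 AoV, and in E10 UGR within the range of E9 AoD. Epas1 rose 5.43-fold in AoD (2.44, SE 0.125, adjusted p 1.52e-09) and 1.70-fold in AoV (0.77, SE 0.125, adjusted p 0.000149). Beside this, the summed endothelial markers were 335 ± 50.2 RPM in E9 AoD and 621 ± 25.8 in E10 AoD, 591 ± 31.0 in E9 AoV and 643 ± 26.4 in E10 AoV, and the 4 sympathoadrenal markers summed to 14.7 to 18.0 RPM in E9 AoD, 204.5 to 249.8 in E10 AoD, 5.32 to 8.97 in E9 AoV and 31.5 to 46.7 in E10 AoV. In E10 UGR, where Epas1 was at 9.86 to 10.3 RPM, these lists stood at 477 ± 21.0 RPM and at 39.1 to 41.0 RPM. Their part in the change of Epas1 was not tested.

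Egln3, a hydroxylase gene that HIF itself induces, fell by 0.75 in both AoV and AoD (SE 0.149, adjusted p 0.000858 and 0.000538). Egln1 stayed within 67.5 to 81.7 RPM in all libraries and fell by 0.16 in AoD (adjusted p 0.0117), which was lost without E10 AoD replicate 3 (adjusted p 0.0623).

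Of the 8 HIF target genes outside glycolysis, 4 fell and 2 rose in AoV (beside 22.4% and 23.6% of all tested genes), and 2 fell and 2 rose in AoD (beside 27.9% and 30.0%), the latter shares near those of all genes. Bnip3 (chr7:146082519-146101202), a mitochondrial protein of mitophagy, was the only 1 of the 8 called by stage, in AoV. Of all tested genes 11% were called in AoV and 12.6% in AoD, so 1 of 8 in AoV is near that share. Bnip3 stood at 61.4, 85.7 and 69.9 RPM in E9 AoV, 42.4, 58.3 and 53.2 in E9 AoD, 38.4, 38 and 34 in E10 UGR, 28.5, 29.4 and 28 in E10 AoV and 33.7, 35.2 and 32.2 in E10 AoD. The E9 AoV libraries were highest and no E10.5 library reached an E9.5 library. Bnip3 fell 2.50-fold in AoV (-1.32, SE 0.114, adjusted p 3.19e-07) and by 0.59 in AoD (SE 0.114, adjusted p 0.000444). P4ha1, a collagen prolyl hydroxylase, fell by 0.67 in AoV and 0.25 in AoD (adjusted p 9.48e-07 and 0.00434). Car9, a carbonic anhydrase often used as a mark of hypoxia, rose by 0.78 in AoV and 0.67 in AoD (adjusted p 0.00253 and 0.00533), at low levels between 0.642 and 1.75 RPM. Vegfa, the endothelial growth factor, fell by 0.33 in AoV (adjusted p 0.00374) and changed by 0.03 in AoD (adjusted p 0.8). Ddit4, an inhibitor of mTORC1, changed by 0.04 and 0.01 (adjusted p 0.895 and 0.968) with an SE of 0.228, the widest of the members.

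Ratios of family members within a library need no scaling between libraries. Of 15 ratios, 12 differed between the 6 E9.5 and the 6 E10.5 aorta libraries (exact two-sided permutation tests, adjusted p under the threshold over 30 tests), and 11 when libraries were permuted only within a replicate number. Both forms of the test treat the AoD and AoV libraries of a stage as separate units. The 2 parts may come from the same embryos, and same-numbered E9 AoD and E9 AoV libraries were correlated, so these p-values may be too small. Some ratios share a member, such as those with Pdk1, Eno1 or Pfkl, so the 12 are not separate results. The share of ratios of other gene pairs that would pass was not worked out. Of all tested single genes 46.0% passed for stage in AoV and 57.8% in AoD. The ratio of Ldha to Ldhb in RPM was 31.3, 24.6 and 41.8 in E9 AoD, 12.6, 11.1 and 13.1 in E9 AoV, 4.12, 3.93 and 4.77 in E10 AoD, 2.89, 2.61 and 2.85 in E10 AoV and 3.85, 3.68 and 3.89 in E10 UGR. The stages did not overlap, and the ratio was 5.73-fold lower at E10.5 (exact permutation p = 0.00216, the smallest these 6 against 6 libraries can give, adjusted p 0.00722). The ratio of Hk1 to Hk2 rose 3.11-fold, and those of Pdk1 to Pdk2, Hif1a to Epas1 and Pfkl to Pfkm fell 3.68-fold, 2.89-fold and 2.02-fold, all with the same exact permutation p of 0.00216. Slc2a1 to Slc2a3 rose 2.9-fold with that exact p, since both transporters fell and Slc2a3 fell further. The ratios of Slc16a1 to Slc16a3, P4ha1 to P4ha2 and Eno1 to Eno3 did not pass for stage (adjusted p 0.945, 0.449 and 0.0893 by exact permutation).

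**Figure D3:**
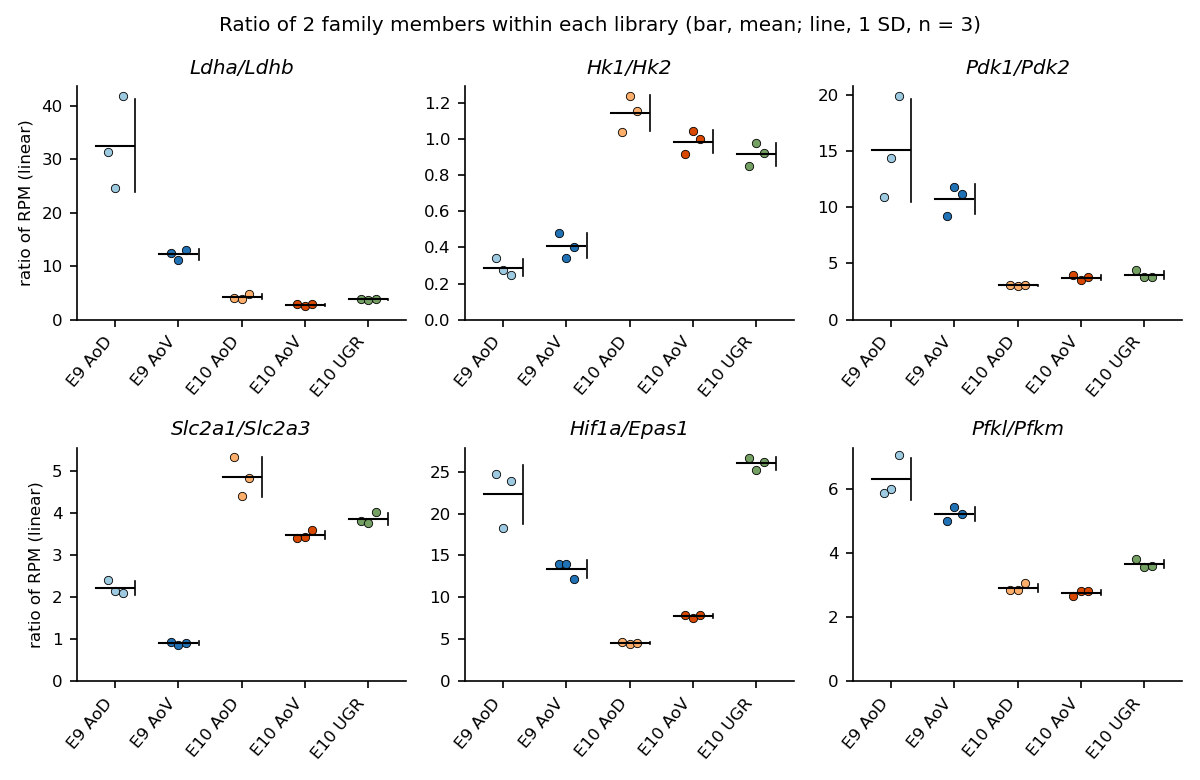
Ratio of RPM of 2 family members within each library (linear axes from 0), with the mean (bar) and 1 SD (line at its right) of each group, n = 3. Ldha/Ldhb falls from a mean of 32.5 in E9 AoD to 2.78 in E10 AoV, Hk1/Hk2 rises from 0.288 in E9 AoD to 1.14 in E10 AoD, and Hif1a/Epas1 is high again in E10 UGR at 26.0.

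The change with stage differed between the dorsal and the ventral part for 22 members in the test of the interaction (13 positive and 9 negative, beside 28.1% of all tested genes, 11.8% and 16.3%), and by at least 2-fold for 4 (beside 11%, 4.12% positive and 6.89% negative), namely Slc16a3, Eno2, Epas1 and P4ha2. In lower and upper glycolysis 8 of 14 members had a positive interaction and 1, Pfkp, a negative one: Aldoa by 0.39 (SE 0.0644) and Tpi1 by 0.35 (SE 0.0555) fell further in AoD than in AoV, as did Slc2a1 by 0.56 (SE 0.145). For the HIF targets the interaction was negative for 4 of 8, Bnip3 by -0.73 (SE 0.162) among them. Slc16a3 fell less in AoV (interaction 1.29, SE 0.0983, adjusted p 3.19e-07), and Epas1 rose less in AoV (-1.67, SE 0.176, adjusted p 6.34e-06). Without E9 AoD replicate 3, 17 members passed and the same number of 4 was called.

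P4ha2 (chr11:53913597-53945167), the other collagen prolyl hydroxylase, was the only member past the test in opposite directions. P4ha2 stood at 45.8, 44 and 46.4 RPM in E9 AoV, 19.4, 21 and 16.5 in E9 AoD, 15, 13.6 and 17.2 in E10 UGR, 24.4, 23.7 and 24.2 in E10 AoV and 27.6, 22.8 and 26.2 in E10 AoD. The E9 AoV libraries stood apart above all others. P4ha2 fell by 0.91 in AoV (SE 0.0953, adjusted p 2.12e-06) and rose by 0.43 in AoD (SE 0.0953, adjusted p 0.00135), an interaction of -1.34 (SE 0.135, adjusted p 4.08e-06). E9 AoV is also the group with the liver and gut endoderm markers, and the part of those cells in the level was not tested.

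**Figure D4:**
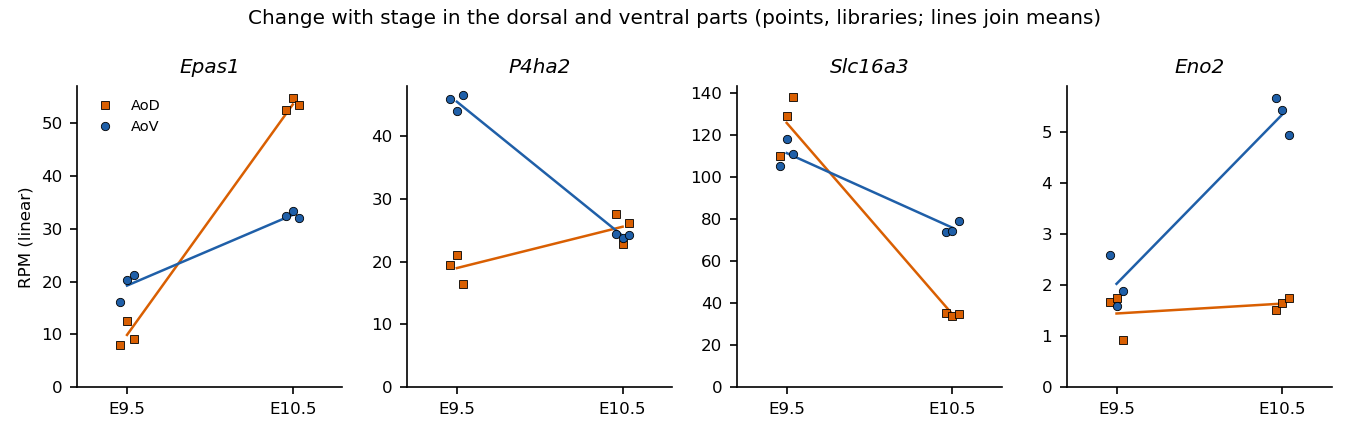
Level in RPM (linear axes from 0) of the 4 members whose change with stage differed by at least 2-fold between the dorsal (squares) and ventral (circles) aorta, with lines joining group means. The lines of Epas1, P4ha2 and Slc16a3 cross between E9.5 and E10.5, and that of Eno2 rises in the ventral part to 5.34 RPM.

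Between the parts of the E9.5 aorta 28 members passed the test, 16 higher and 12 lower in E9 AoV (beside 47.7% of all tested genes, 27.5% higher and 20.1% lower), and P4ha2 and Adm were called, both higher (beside 11.8%, 8.32% higher and 3.47% lower). With quantile normalization the share higher in E9 AoV among all genes past the test turned from 57.7% to 43.8%. The split of the members past the test turned from 16 higher and 12 lower to 13 and 11. Of the glycolytic enzymes, Ldha was lower in E9 AoV by 0.53 (SE 0.0638, adjusted p 7.64e-06), as were Slc2a1 by 0.42 and Pkm2 by 0.39. P4ha2 was 2.40-fold higher in E9 AoV (1.26, SE 0.0953, adjusted p 6.96e-08), and Epas1 and Slc2a3 were higher by 0.96 and 0.87. Epas1 reached 1.14 without E9 AoD replicate 2 and 1.08 without E9 AoV replicate 1, and Slc2a3 1.07 without E9 AoD replicate 3.

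Adm (chr7:117771175-117773331), the vasodilator peptide adrenomedullin, was higher in the ventral part at both stages. Adm stood at 2.28, 2.67 and 2.35 RPM in E9 AoV, 1.16, 1.56 and 0.834 in E9 AoD, 1.98, 2.26 and 2.51 in E10 UGR, 3.79, 3.73 and 4.17 in E10 AoV and 1.49, 1.71 and 1.37 in E10 AoD. The AoV libraries did not overlap with the AoD libraries at either stage. Adm was 2.02-fold higher in E9 AoV (1.02, SE 0.173, adjusted p 0.000204) and 2.47-fold in E10 AoV (1.3, SE 0.173, adjusted p 2.6e-05). At E9.5 this is at the 2-fold limit, with 0.81 without E9 AoD replicate 3 and 0.95 without E9 AoV replicate 2, and with a pseudocount of 1 RPM both differences were below 2-fold, at 0.66 and 0.96.

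Between the parts of the E10.5 aorta 13 members passed, 10 higher and 3 lower in E10 AoV (beside 35.5% of all tested genes, 20.2% higher and 15.3% lower), and 3 were called, all higher (beside 10.1%, 5.81% higher and 4.29% lower). Eno2 was 3.13-fold higher in E10 AoV (1.64, SE 0.208, adjusted p 1.68e-05) and Slc16a3 2.18-fold (1.12, SE 0.0695, adjusted p 1.05e-08). Epas1 was lower in E10 AoV by 0.71 (SE 0.125, adjusted p 0.000354). Ldha was lower by 0.23 (adjusted p 0.0117), which was lost without E10 AoD replicate 3 (adjusted p 0.0625) or E10 AoV replicate 2 (adjusted p 0.0642), and Pgk1 by 0.15 (adjusted p 0.0322), which was lost without any of 4 libraries, E10 AoD replicates 1 and 3 and E10 AoV replicates 1 and 2, with adjusted p between 0.0724 and 0.164.

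The urogenital ridges had higher levels of most enzymes of glycolysis than the aorta of the same age. Against E10 AoV, 17 members were higher in E10 UGR and 4 lower (beside 16.6% and 12.5% of all tested genes), and against E10 AoD 24 were higher and 2 lower (beside 24.8% and 14.5%), or 21 and 26 in all (beside 29.1% and 39.2%). These comparisons share the E10 UGR libraries. With median-ratio scaling, 15 and 23 members were higher in E10 UGR and 4 and 2 lower. Among all genes past the test, the share higher in the aorta then rose from 42.9% to 52.8% for AoV and from 36.9% to 48.6% for AoD. Ldha was higher in E10 UGR by 0.49 than in E10 AoV and by 0.26 than in E10 AoD, and Eno3, the muscle enolase, by 0.47 and 0.65. Vegfa was higher in E10 UGR by 0.44 and 0.60.

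The members called against E10 UGR were few. Epas1 was 3.2-fold higher in E10 AoV (1.68, SE 0.125, adjusted p 1.23e-07) and 5.24-fold higher in E10 AoD (2.39, SE 0.125, adjusted p 1.5e-09). Epas1 alone was called in E10 AoV (beside 7.57% of all tested genes, 3.84% higher and 3.73% lower), and 3 members in E10 AoD, 1 higher and 2 lower (beside 11.3%, 4.76% higher and 6.56% lower). Eno2 was 4.6-fold and Slc16a3 2.09-fold lower in E10 AoD than in E10 UGR, and Aldoc was lower there by 0.92 on the log2 scale. Of the 2 tissues E10 AoV had more Adm, by 0.77 (SE 0.173, adjusted p 0.00338). Car9 was higher by 0.68 (adjusted p 0.0105), which was lost without E10 AoV replicate 3 (adjusted p 0.0523), E10 UGR replicate 1 (adjusted p 0.0501) or E10 UGR replicate 2 (adjusted p 0.0556). P4ha2 was higher in E10 AoD than in E10 UGR by 0.74 (SE 0.0953, adjusted p 1.71e-05).

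Across the 15 libraries the members differed in how closely they followed Ldha, given as a description because the libraries share groups. Pearson's r with Ldha was 0.996 for Pkm2, 0.995 for Eno1, 0.991 for Pgk1, 0.987 for Pgam1 and 0.963 for Pfkl. It was -0.930 for Ldhb, -0.850 for Pdk2, -0.546 for Hif1a and -0.682 for Epas1. Over the 8 HIF target genes it ranged from -0.819 for Car9 to 0.761 for Bnip3.

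Lists of other genes of these pathways were counted beside the shares of all tested genes given above, 23.6% higher and 22.4% lower in AoV and 30.0% and 27.9% in AoD. Of 25 further glycolytic and glucose genes tested, 6 were higher and 8 lower at E10.5 in AoV, and 11 higher and 7 lower in AoD, with medians of 0.011 and 0.29. Among them Pfkfb3, which makes the activator of phosphofructokinase, fell by 0.62 in AoV and by 0.76 in AoD (SE 0.123 in both). Slc2a2, the transporter of liver and gut, fell from 4.07 ± 1.04 RPM in E9 AoV to 0.016 ± 0.014 in E10 AoV, beside the loss of the endoderm markers. In the other direction, Slc2a4 rose by 0.95 in AoV and 0.58 in AoD, and Slc16a7 rose by 1.96 in AoD and changed by -0.09 in AoV. Of 32 other HIF targets, 9 were higher and 9 lower in AoV, and 16 higher and 10 lower in AoD. Ak3l1, an adenylate kinase, fell by 1.37 in AoV and 1.68 in AoD, and Stc2, a secreted glycoprotein, by 1.11 and 2.35. Ndufa4l2, a mitochondrial protein that HIF induces, rose by 2.78 and 4.67, and Edn1, also an endothelial gene, rose by 0.95 in AoV and 2.07 in AoD.

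Lists of oxidative metabolism, HIF control and the pentose phosphate pathway were read against the same shares, 23.6% higher and 22.4% lower in AoV and 30.0% and 27.9% in AoD. Of 25 genes of pyruvate dehydrogenase and the TCA cycle, 6 were lower and 1 higher at E10.5 in AoV and 12 lower and 3 higher in AoD, with medians of -0.067 and -0.047. None of them was called at 2-fold, beside 11% of all tested genes in AoV and 12.6% in AoD. Of 22 genes of oxidative phosphorylation, 4 were lower and 1 higher in AoV and 6 lower and 1 higher in AoD. Again none was called at 2-fold, beside the same 11% and 12.6%. Of 12 genes that control HIF, such as its partner Arnt and the ubiquitin ligase subunit Vhl, 5 rose and 1 fell in AoV and 3 rose and 1 fell in AoD. Of 7 genes of the pentose phosphate pathway, 2 rose and 3 fell in AoV and 2 fell in AoD.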

How the data were processed

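RNA from 15 libraries of pooled embryonic tissue was sequenced by the authors as single-end reads from TruSeq libraries. TopHat and Bowtie 0.12.3 were used by the authors for alignment to the NCBI37/mm9 genome, and reads were counted over Ensembl genes with GeneProf, which divided ambiguous reads among genes in proportion to unique reads. The deposited values are RPM, rounded by the authors to 3 significant digits. The 12 deposited columns of the authors' own DESeq comparisons, with log2 fold changes and p-values, were not used. Depth came from the steps between low values, of which 71.1% to 73.9% were whole multiples within 0.5% of the value, so whole reads were not recovered and no count test was run.

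Genes reaching 0.5 RPM in any library were fitted with limma 3.58.1 (R 4.3.3) on log2(RPM + 0.1), with 1 mean per group, an intensity trend and Benjamini-Hochberg adjustment over 18553 genes. A change of at least 2-fold with adjusted p below 0.05 was called. The interaction is the change with stage in AoV minus that in AoD. The fit was tested on simulated data. Values in every library are given for members called in any comparison and, in a role group without such a member, for the member with the largest spread of group means, and for Hif1a, chosen after its values were seen. For each comparison the 3 largest changes in each direction among members past the test are named. The members and lists were chosen with earlier results of these data known.

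Gene positions are from a GENCODE annotation of NCBIM37, and promoters from RefSeq (GRCm38.p6). Windows of 50 bases of each member's exons were searched in the genome, and a gene holding at least 5% of them counted as a near-identical copy. Pools came from separate experiments, so p-values measure the spread between such pools, but whether a replicate number marks 1 experiment is not stated. Deviations from group means of same-numbered libraries had a Pearson r between -0.138 and 0.452 over 30 pairs, all above 0.1 only between E9 AoD and E9 AoV (0.19 to 0.452). Alternatives were another pseudocount, no filter, quantile and median-ratio scaling, no trend, only the groups compared, a replicate block, leaving out each library, and, chosen after seeing the data, adding near-identical copies.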

Additional observations from a re-analysis of the deposited data

Results flagged for a closer look

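The stage change differed by at least 2-fold between the ventral and the dorsal aorta for 4 members in the interaction test of limma. The value is the log2 change in AoV minus that in AoD. It was 1.29 for Slc16a3 (SE 0.0983, adjusted p 3.19e-07), which fell in both parts and further in AoD. It was 1.16 for Eno2 (SE 0.295, adjusted p 0.00813), which rose in AoV, and 0.95 with a pseudocount of 1 RPM. It was -1.67 for Epas1 (SE 0.176, adjusted p 6.34e-06), which rose in both parts and further in AoD, and -1.34 for P4ha2 (SE 0.135, adjusted p 4.08e-06), which fell in AoV and rose in AoD.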

How the results depend on the processing

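Under 8 alternative settings and 15 fits without 1 library, no member past the test in a comparison changed direction. Of 170 pairs of member and comparison past the test, 5 lost significance with median-ratio scaling, 11 without the filter, 9 without the trend, 9 with only the groups compared and 8 with quantile normalization, and none with a pseudocount of 1 RPM, the replicate block or near-identical copies added. Without 1 library 26 of them were lost in at least 1 fit. The number of members called in E9 AoV against E9 AoD, 2, was 1 with median-ratio scaling, a pseudocount of 1 RPM and quantile normalization, and 1 to 3 without 1 library. With the replicate block 29, 31, 13, 29, 23 and 27 members passed in the comparisons of E10 AoV with E9 AoV, E10 AoD with E9 AoD, E10 AoV with E10 AoD, E9 AoV with E9 AoD, E10 AoV with E10 UGR and E10 AoD with E10 UGR, and 23 in the interaction, and it changed no call at 2-fold. Ratios of family members past the test for position, 2 (Eno1 to Eno3 and P4ha1 to P4ha2), were 1 when permuted within replicate numbers as a block and 0 to 3 without 1 library, being 0 without any single E9 AoV library or E10 AoV replicate 1 and 1 without E9 AoD replicate 3, E10 AoV replicate 2 or E10 AoV replicate 3. For stage they were 11 to 12. The same-numbered library was the best correlated in 15 of 30 cases. The lowest member levels, of Car9, Pdk4, Adm and Eno2, rest on few reads, which limits their precision, and no counts allow an interval.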
